A study of Bos taurus with 24 samples.

Results

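Collagen chains were taken as every gene of the array whose symbol is COL, a number, A and a number, which gave 42 of the 18444 genes named by the platform annotation. Where a gene had more than 1 array feature the brightest was used, and no gene was left out for being dim. Of the 42 chains, 11 belong to fibril-forming collagens, 6 to the type IV network of basement membranes, 5 to the beaded filaments of type VI, 9 to collagens that attach to fibrils (FACITs), 4 to transmembrane collagens, 3 to short network collagens and 2 to multiplexins. COL7A1 and COL26A1 fall outside these classes.

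The RNA came from needle biopsies of gluteus medius, a hindquarter muscle, of 12 cows, and was hybridised to 24 Affymetrix arrays. Per the labels, 6 cows were the highest and 6 the lowest gaining animals of a trial of 121 cows, chosen by their gain in the period of free feeding. Each cow gave a biopsy 1 and a biopsy 2, so each gain class has 6 arrays per biopsy, in 4 groups. The protocol lists a biopsy on day 105 of 112 days on a restricted diet (120 kcal of metabolizable energy for each kg of metabolic body weight) and then a biopsy on day 49 of 112 days of feed at will. The labels do not tie the numbers to the periods, so biopsy 1 was taken to be the earlier of them. All cows went through both periods. The sources used here give neither age nor breed. Values are on a log scale taken as log2, as its base is not stated.

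Collagens are the main structural proteins of the tissue that surrounds and binds muscle fibres. Fibrillar collagens, above all types I and III, form the tensile fibrils of the sheaths around fibres and bundles. Type IV collagen is the sheet of the basement membrane on fibres, vessels and fat cells, and type VI filaments link that membrane to the surrounding matrix. FACITs sit on the surface of fibrils. In muscle most chains are made by fibroblasts, with type IV and type XV also made by endothelial cells and fat cells, so a biopsy's collagen signal depends on the tissues in the needle. In bulk samples such as these, fewer cells of a type and less RNA per cell cannot be told apart.

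The arrays of biopsies 1 and 2 appeared as separate processing sets, each with its own upper limit of the scale, and with array medians of 7.68 to 7.88 and 7.79 to 7.85. Whatever separates the sets therefore cannot be told apart from the biopsy number. The muscle label was borne out on 23 arrays, on which the mean of 14 measured muscle fibre markers was at least 19.01. On the array of low gain cow 4 at biopsy 1 that mean was 15.7, with ACTA1, skeletal muscle actin, at 14.5 and the creatine kinase gene CKM at 14.6. On the same array ADIPOQ, which encodes the fat cell hormone adiponectin, was at 17.98. The array of high gain cow 4 at biopsy 2 had ADIPOQ at 18.2 and CKM at 19.2. Counts of chains that rest on these arrays are given with and without them. Precision is set by the small number of arrays. The p-values of differences weigh them against the spread among these cows, of changes within a cow for biopsies and of levels for gain classes. Those of relations between genes come from permutation.

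No chain was at the upper limit of the scale on any array, and 33 of 42 had a mean level above the 25th percentile of all features (6.76). All 5 type VI chains lay above it, as did 4 of 6 type IV chains and 6 of 9 FACITs. The levels of different chains come from different probes and are not compared with each other. What can be compared is how far each chain varied from cow to cow.

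COL3A1, the chain of type III collagen, ranged from 7.94 to 14.7 over the 12 arrays of biopsy 1, with a median of 9.55. At biopsy 2 it ranged from 8.90 to 14.7, with a median of 10.46. The highest value at biopsy 1 was that of low gain cow 4 and the highest at biopsy 2 that of high gain cow 4. COL1A1 and COL1A2, the 2 chains of type I collagen, had ranges of 7.95 to 12.3 and 8.84 to 12.7 at biopsy 1. At biopsy 2 they ranged from 8.87 to 13.6 and from 9.66 to 13.4. COL4A1, a chain of the basement membrane network found in most tissues, ranged from 8.71 to 12.5 at biopsy 1 and from 8.83 to 14.4 at biopsy 2. For each of these chains the ranges of the biopsies overlapped over most of their length.

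Other chains varied far less. COL23A1, a transmembrane collagen, had an SD of 0.21 at biopsy 1 and 0.15 at biopsy 2 (n = 12 arrays each). COL2A1, the fibrillar collagen of cartilage, had SDs of 0.13 and 0.13. COL1A1 had SDs of 1.43 and 1.43, and COL3A1 of 1.82 and 1.67.

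**Figure D1:**
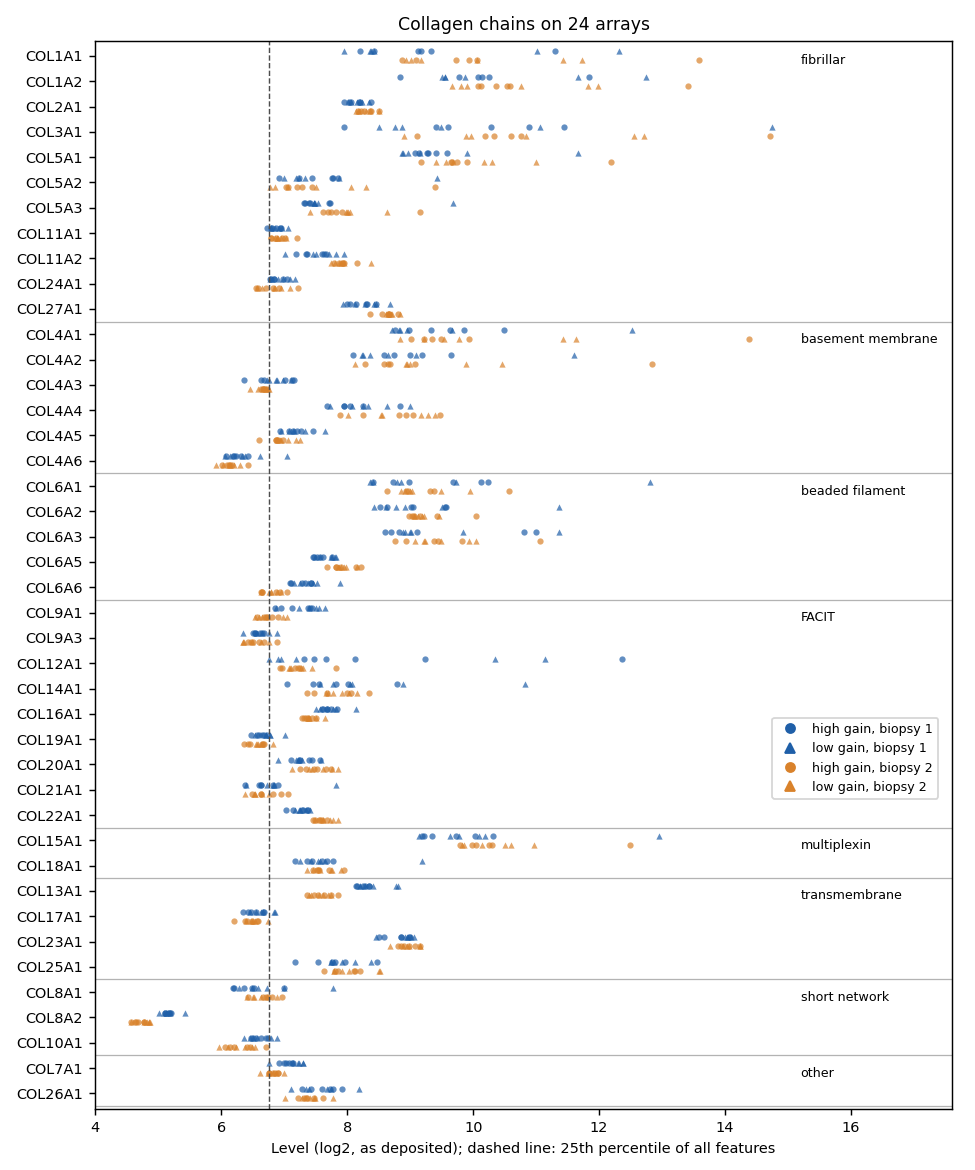
Level of each of 42 collagen chains (rows, in 8 classes) on 24 arrays, in log2 as deposited. Points are arrays, circles for high gain and triangles for low gain cows, blue for biopsy 1 and orange for biopsy 2, and the dashed line is the 25th percentile of all features (6.76). COL3A1 spans 7.94 to 14.7 at biopsy 1, whereas COL13A1 spans 8.14 to 8.81 there and 7.37 to 7.86 at biopsy 2.

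On the array of low gain cow 4 at biopsy 1, 27 of the 42 chains were higher than on any of the other 11 biopsy 1 arrays, against 27.3% of all named genes. COL3A1 was 5.25 above the median of the other arrays there. On the array of high gain cow 4 at biopsy 2, 18 chains were higher than on any other array of that biopsy, against 15.9% of all genes. On it COL4A1 was 4.88 above the median of the other arrays. The mean of 13 fibroblast markers, all measured, was 12.1 on the first array, where the median of the low gain group at biopsy 1 was 9.09. It was 10.7 on the second, where the median of the high gain group at biopsy 2 was 9.63. The mean of 13 of 14 listed adipocyte markers was 13.4 and 15.1 on these arrays, against group medians of 9.97 and 9.57. In the same groups the highest mean of 10 endothelial markers was 11.6 and 10.7, against medians of 9.31 and 9.69. For 9 measured smooth muscle and pericyte markers it was 12.4 and 10.8, against 10.3 and 10.5. The part of these cell types in the chains' values was not tested here beyond the relation to ADIPOQ given below.

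The comparison of biopsies asked how collagen expression within a cow differed between the feeding periods. The chains with the clearest difference were COL13A1, COL6A6, COL8A2 and COL9A1, each lower at biopsy 2 in 12 of 12 cows. COL22A1 and COL27A1 were higher, in 11 and 12 of 12 cows. Types I, III and V, the chains COL4A1, COL4A2 and COL4A4 of type IV, and the chains COL6A1, COL6A2 and COL6A3 of type VI did not pass the test. Values here are after quantile normalization over all arrays, with each cow as a block, by limma with Benjamini-Hochberg adjustment over 18444 genes and a threshold of 0.05.

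In all, 14 of 42 chains (33.3%) passed, 4 higher and 10 lower at biopsy 2. Of all genes 42% passed, 22.3% higher and 19.7% lower. The median change of the chains was -0.09 and that of all genes 0.02. With low gain cow 4 and high gain cow 4 left out, 15 chains passed, 5 higher and 10 lower, against 44.5% of all genes. On the values as deposited 6 chains were higher and 9 lower, which moved the share of higher calls from 28.6% to 40%, and that share among all genes from 53.1% to 66.7%.

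COL13A1, a transmembrane collagen found at the nerve-muscle junction, ranged from 8.10 to 8.94 at biopsy 1, with a median of 8.34, and from 7.32 to 7.85 at biopsy 2, with a median of 7.56. The biopsies did not overlap. It fell by 0.85 ± 0.08 (SE, n = 12 cows; limma, adjusted p = 3.8e-06), and by 0.57 to 1.42 in single cows. COL6A6, a type VI chain, ranged from 7.13 to 7.77 at biopsy 1 and from 6.61 to 6.94 at biopsy 2, and fell by 0.61 ± 0.08 without overlap. COL8A2, a chain of the short network collagen of type VIII, ranged from 4.93 to 5.42 and from 4.49 to 4.86, and fell by 0.51 ± 0.06. Its mean level of 4.95 lay under the 25th percentile of all features. These were the 3 chains whose biopsies did not overlap, all lower at biopsy 2, where 1.89% of all genes lay lower without overlap and 4.01% in either direction.

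**Figure D2:**
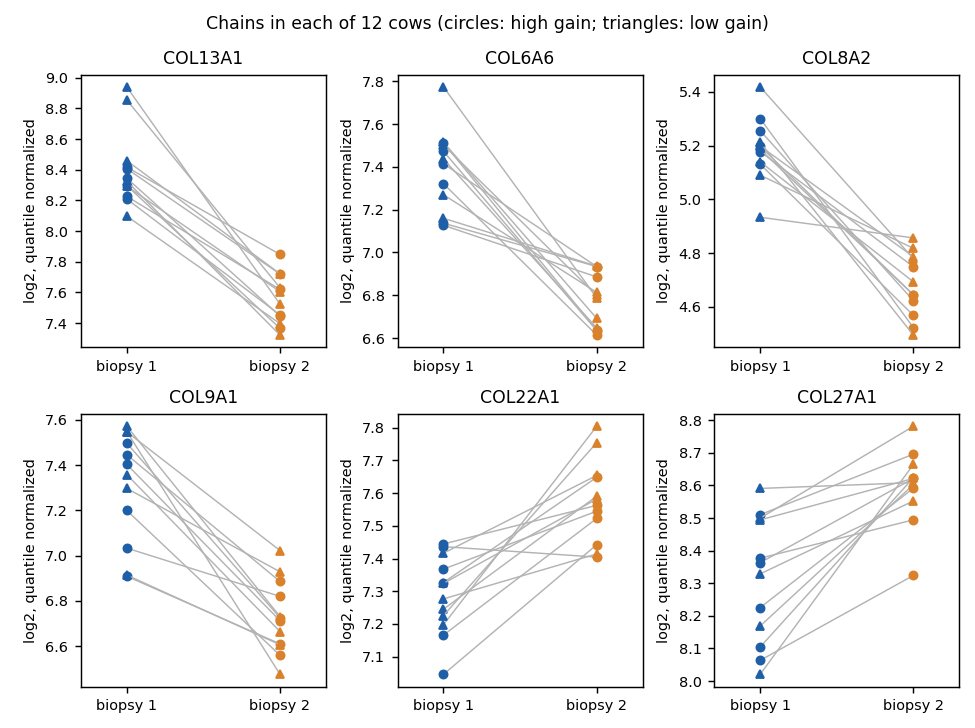
Level of 6 chains at biopsies 1 and 2 (log2 after quantile normalization), with a line for each of 12 cows, circles for high gain and triangles for low gain. COL13A1, COL6A6, COL8A2 and COL9A1 are lower at biopsy 2 in every cow, COL27A1 is higher in every cow, and COL22A1 is higher in 11.

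Among FACITs, COL9A1, a chain of type IX collagen, known from cartilage, fell by 0.58 ± 0.08 in 12 of 12 cows and COL16A1, which sits near fibrils and basement membranes, by 0.38 ± 0.06 in 12 of 12 cows. COL22A1, a collagen of muscle-tendon junctions, rose by 0.29 ± 0.06 in 11 of 12 cows. The 6 other FACIT chains did not pass. COL7A1, which forms anchoring fibrils, fell by 0.34 ± 0.06 in 12 of 12 cows. COL26A1 fell by 0.27 ± 0.10 in 9 of 12 cows, and its call held in 11 of 23 settings, with adjusted p up to 0.15 (limma). Without low gain cow 4 and high gain cow 4 it did not pass (-0.25, adjusted p = 0.091). COL10A1, a short network collagen of growth plates, fell by 0.32 ± 0.07 in 11 cows.

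Of 11 fibrillar chains 2 passed, both higher at biopsy 2. COL27A1 rose by 0.29 ± 0.07 and COL11A2, a chain of type XI, by 0.34 ± 0.10 in 9 of 12 cows. COL1A1 differed by 0.65 ± 0.60 (95% interval -0.64 to 1.94), COL1A2 by 0.27 ± 0.48 and COL3A1 by 0.66 ± 0.70 (-0.84 to 2.15). COL5A1, of type V, which helps to start fibrils, differed by 0.45 ± 0.33, higher in 10 of 12 cows, COL5A2 by -0.16 ± 0.29 and COL5A3 by 0.24 ± 0.21. Within single cows the change of COL3A1 ran from -5.26 to 4.28 and was positive in 6 of 12. The intervals of types I and III thus leave room for a change of more than 1 in log2 at biopsy 2.

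Of 6 type IV chains 2 passed, both lower at biopsy 2. COL4A5 fell by 0.30 ± 0.09 and COL4A3 by 0.23 ± 0.07, each in 10 of 12 cows. COL4A1 differed by 0.46 ± 0.54, COL4A2 by 0.19 ± 0.43, COL4A4 by 0.45 ± 0.19 (adjusted p = 0.071) and COL4A6 by -0.21 ± 0.08 (adjusted p = 0.056). Of type VI, COL6A5 rose by 0.23 ± 0.08 in 10 of 12 cows. COL6A1 differed by -0.32 ± 0.38, COL6A2 by -0.06 ± 0.24 and COL6A3 by -0.10 ± 0.32. COL15A1, a multiplexin of the basement membrane zone, differed by 0.26 ± 0.33.

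**Figure D3:**
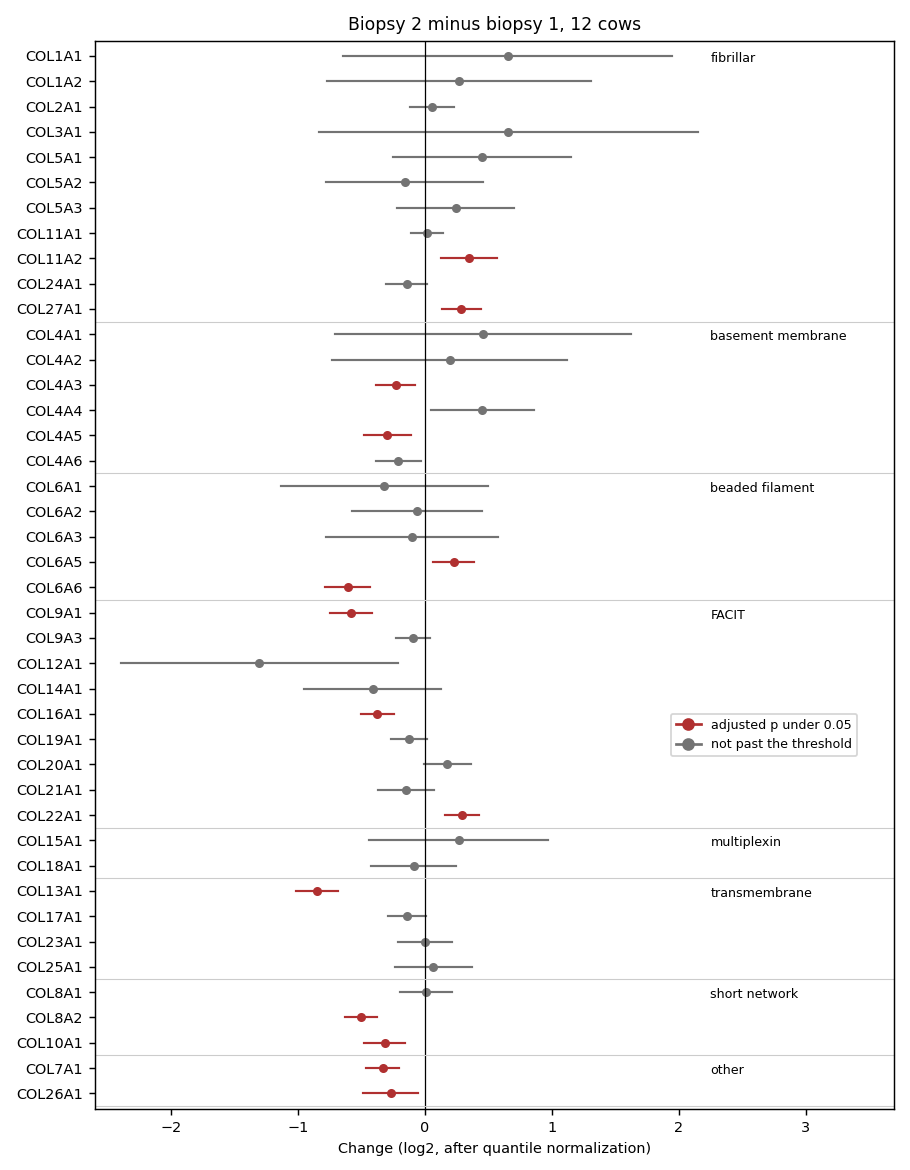
Change of each chain between biopsies (biopsy 2 minus biopsy 1, log2 after quantile normalization, n = 12 cows) with its 95% interval, red where the adjusted p was under 0.05. The 14 chains that passed changed by 0.23 to 0.85 with standard errors of 0.06 to 0.10, while COL3A1 and COL1A1 have standard errors of 0.70 and 0.60.

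Odorant receptor genes, which muscle is not known to need, also differed between the sets: 375 of 806 (46.5%) passed, and 95% of the 806 changed by less than 0.75. Their median level was 6.36, under the 25th percentile of all features (6.76), while 11 of the 14 chains that passed lay above it. COL13A1 is the 1 chain of the 14 that changed by more, and it lay below their 99th percentile of 1.03.

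COL12A1, a FACIT of dense connective tissue, had a wide spread at biopsy 1 and a narrow one at biopsy 2. At biopsy 1 it was at 12.4 in high gain cow 1, 11.1 in low gain cow 4, 10.3 in low gain cow 1 and 9.24 in high gain cow 2, as deposited. In the other 8 cows it lay between 6.75 and 8.12. At biopsy 2 all 12 arrays lay between 6.94 and 7.82, so that 5 cows stood above the whole range of biopsy 2 at biopsy 1. The SD was 1.88 at biopsy 1 and 0.24 at biopsy 2 (n = 12). The mean change of -1.31 ± 0.51 was the largest in size of any chain and did not pass (limma, adjusted p = 0.053), and COL12A1 was lower at biopsy 2 in 7 of 12 cows. The 4 biopsy 1 arrays named above were also the 4 highest in ADIPOQ there. ADIPOQ was at 14.7, 17.98, 13.7 and 14.9 on them, in the order given, and next highest, at 13.5, in high gain cow 4. COL14A1, a related FACIT, was at 10.8 on the array of low gain cow 4 and between 7.04 and 8.89 on the other biopsy 1 arrays, and it changed by -0.41 ± 0.25 without passing.

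In high gain cows alone 8 of 42 chains passed, all lower at biopsy 2, against 24% of all genes and 10.8% of them lower. In low gain cows 8 passed, 7 lower and COL22A1 higher, against 24.6% of all genes, 11.9% lower and 12.7% higher. COL13A1, COL8A2, COL9A1, COL6A6, COL16A1, COL7A1 and COL10A1 passed as lower in both classes. The call of COL10A1 was lost in high gain cows in 5 of 12 fits that left out 1 cow each, with adjusted p up to 0.094, and in low gain cows in 10 of 12, with adjusted p up to 0.14 (limma). That of COL7A1 was lost in high gain cows in 5 of 12 such fits, with adjusted p up to 0.071 (limma). COL13A1 fell by 0.74 ± 0.11 in high gain and by 0.96 ± 0.11 in low gain cows (SE, n = 6 cows each). COL4A5 passed in high gain cows, at -0.40 ± 0.12, and COL22A1 in low gain cows, at 0.35 ± 0.09. The call of COL4A5 was lost in 3 of 12 fits that left out 1 cow each, with adjusted p up to 0.10 (limma). With low gain cow 4 and high gain cow 4 left out, 8 and 11 chains passed, against 29.6% and 25.6% of all genes. Without high gain cow 1, or without high gain cow 4 alone, the count in high gain cows was 5. The share of all genes in those fits is not given here.

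Whether the classes changed differently was tested as an interaction. No chain passed, and 0 of 18444 genes did (0%), by limma, where 3.88% had an unadjusted p under 0.05. The smallest p among chains was that of COL8A1, a chain of type VIII, whose change was higher by 0.40 ± 0.19 in high gain cows (limma, adjusted p = 0.9998). COL13A1 had an interaction of 0.22 ± 0.16 (95% interval -0.12 to 0.56) and COL3A1 of 0.53 ± 1.39 (-2.45 to 3.52).

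The comparison of gain classes asked whether the muscle of fast and slow gaining cows differed in collagen expression at each biopsy. No chain and 0 of 18444 genes (0%) passed at biopsy 1, at biopsy 2 or on the mean of both biopsies, by limma on the values as deposited. An unadjusted p under 0.05 was found in 5.41%, 2.8% and 4.36% of all genes, and in 0, 1 and 1 of 42 chains. These were COL4A5 at biopsy 2, lower in high gain cows by 0.19 ± 0.09, and COL19A1 on the mean of both biopsies, lower by 0.12 ± 0.05.

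At biopsy 1, 37 of 42 chains had a lower mean in high gain cows, with a median difference of -0.14 against -0.03 for all genes. Without low gain cow 4 and high gain cow 4 that was 27 of 42, with medians of -0.03 and -0.02. COL3A1 ranged from 7.94 to 11.4 with a median of 9.94 in high gain cows at biopsy 1, and from 8.50 to 14.7 with a median of 9.18 in low gain cows. Its difference was -0.31 ± 0.94 (95% interval -2.33 to 1.70). COL14A1 differed by -0.75 ± 0.48 and COL8A1 by -0.36 ± 0.22. COL13A1, with narrow groups, differed by -0.19 ± 0.13 (-0.48 to 0.09).

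At biopsy 2, COL3A1 ranged from 9.10 to 14.7 with a median of 10.46 in high gain cows and from 8.90 to 12.7 with a median of 10.4 in low gain cows. The difference was 0.14 ± 0.87 (-1.74 to 2.02). COL1A1 differed by 0.15 ± 0.75, COL4A1 by 0.16 ± 0.84 and COL6A1 by 0.09 ± 0.29. The groups overlapped for each of these chains. The intervals of types I and III reach beyond 1 in either direction, so a difference of that size was not excluded with 6 cows a group.

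**Figure D4:**
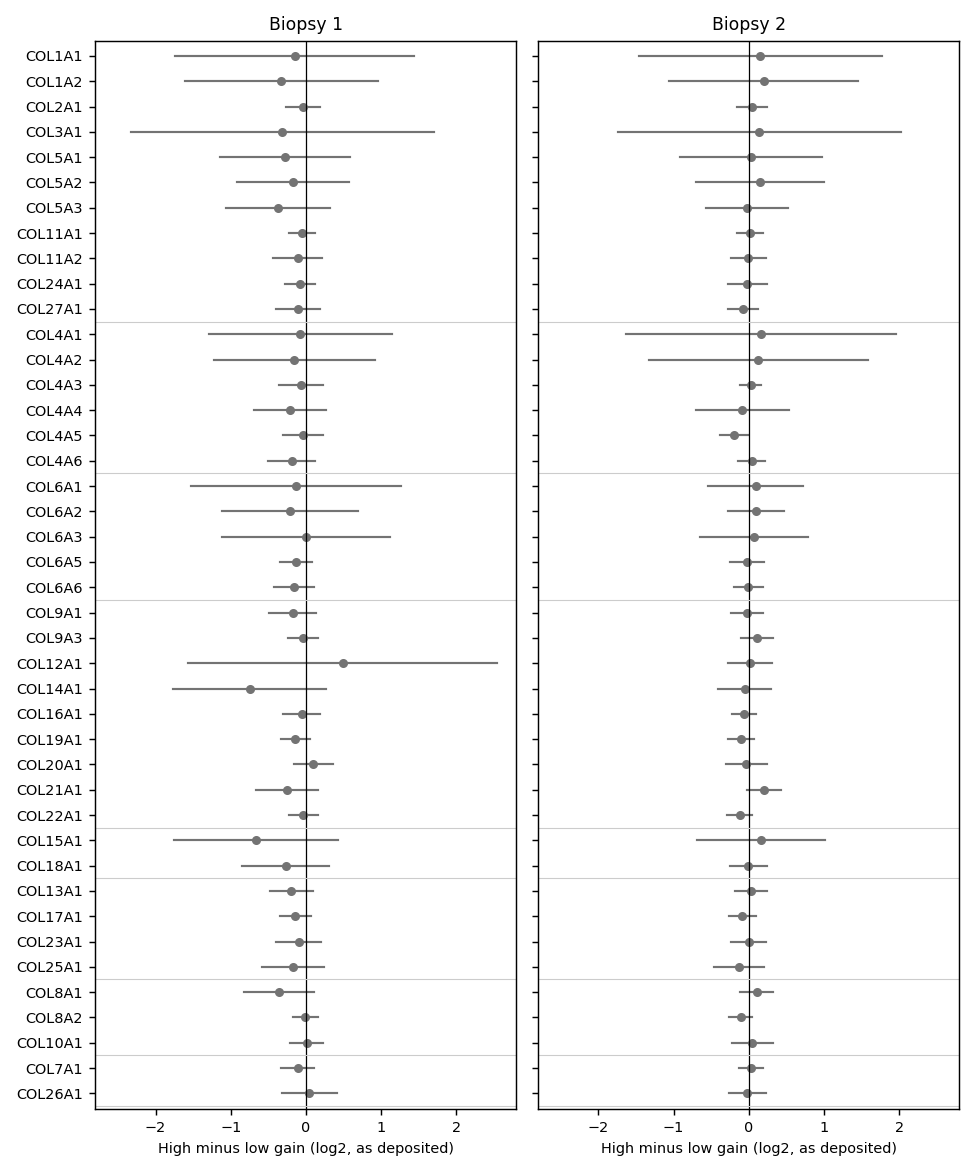
Difference of each chain between gain classes (high minus low gain, log2 as deposited) at biopsy 1 and biopsy 2, with its 95% interval, n = 6 cows a class. No chain passed the threshold, and the interval of COL3A1 runs from -2.33 to 1.70 at biopsy 1 and from -1.74 to 2.02 at biopsy 2.

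The chains were then set against ADIPOQ, as a measure of fat tissue in the biopsy, over the 12 arrays of each biopsy. ADIPOQ itself ranged from 8.20 to 17.98 at biopsy 1 and from 8.37 to 18.2 at biopsy 2. The chains of types I, III and V, the chains COL4A1 and COL4A2 of type IV and the chains COL6A1, COL6A2 and COL6A3 of type VI had a positive r at both biopsies. Of the other type VI chains, which passed at neither, COL6A5 had r = -0.419 and -0.244 and COL6A6 r = 0.551 and 0.292. COL3A1 had a Pearson r of 0.927 at biopsy 1 (Spearman's rho 0.930; permutation p = 1e-05 for r, the smallest that 100000 resamples can give). At biopsy 2 its r was 0.888 (rho 0.748; permutation p = 0.00039).

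With adjustment over all genes and both biopsies, 13 of 42 chains passed at biopsy 1, all positive, where 7.07% of all genes passed and 4.25% were positive. At biopsy 2, 11 passed, all positive, against 7.47% and 4.55%. There were 10 chains that passed at both biopsies: COL1A1, COL1A2, COL3A1, COL4A1, COL4A2, COL5A1, COL5A2, COL5A3, COL6A1 and COL15A1. How many of all genes passed at both was not counted, so no trait of collagens is read from the 10. COL6A2, COL6A3 and COL14A1 passed at biopsy 1 and COL12A1 at biopsy 2. COL12A1 had r = 0.725 (rho = 0.706) at biopsy 1, where it did not pass, and r = 0.845 (rho = 0.741) at biopsy 2. The median r over the 42 chains was 0.51 and 0.29, against -0.02 and -0.11 over all genes. Two-sided tests were used throughout.

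The strongest relations at biopsy 1 after COL3A1 were those of COL6A1 (r = 0.901, rho = 0.888; permutation p = 2e-05), COL5A2 (r = 0.876, rho = 0.916; permutation p = 1e-05) and COL6A3 (r = 0.872, rho = 0.867; permutation p = 2e-05). At biopsy 2 they were those of COL4A1 (r = 0.9003, rho = 0.776; permutation p = 0.00018), COL1A1 (r = 0.897, rho = 0.734; permutation p = 0.00036) and COL5A2 (r = 0.890, rho = 0.636; permutation p = 0.00029). By rank correlation, with the same adjustment, 6 chains passed at biopsy 1 and COL4A2 alone at biopsy 2. The share of all genes that passed by rank was not counted, so no trait of collagens is read from these counts.

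These calls were lost without the arrays at the ends of the ADIPOQ scale. Without the 2 arrays farthest from its median, those of low gain cow 4 and high gain cow 6 at biopsy 1 and of high gain cow 4 and low gain cow 6 at biopsy 2, no chain passed, and 0.0542% and 0.25% of all genes did. The r of the 13 chains was then between 0.49 and 0.89 at biopsy 1, with COL6A1 at 0.889 and COL3A1 at 0.865. At biopsy 2 the 11 chains lay between 0.55 and 0.83, with COL4A2 at 0.831 and COL5A3 at 0.817. The shares of all genes had been 7.07% and 7.47% over 12 arrays, so with 10 arrays few genes of any kind passed. The loss of calls alone therefore does not tell how far these relations rest on the arrays left out.

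**Figure D5:**
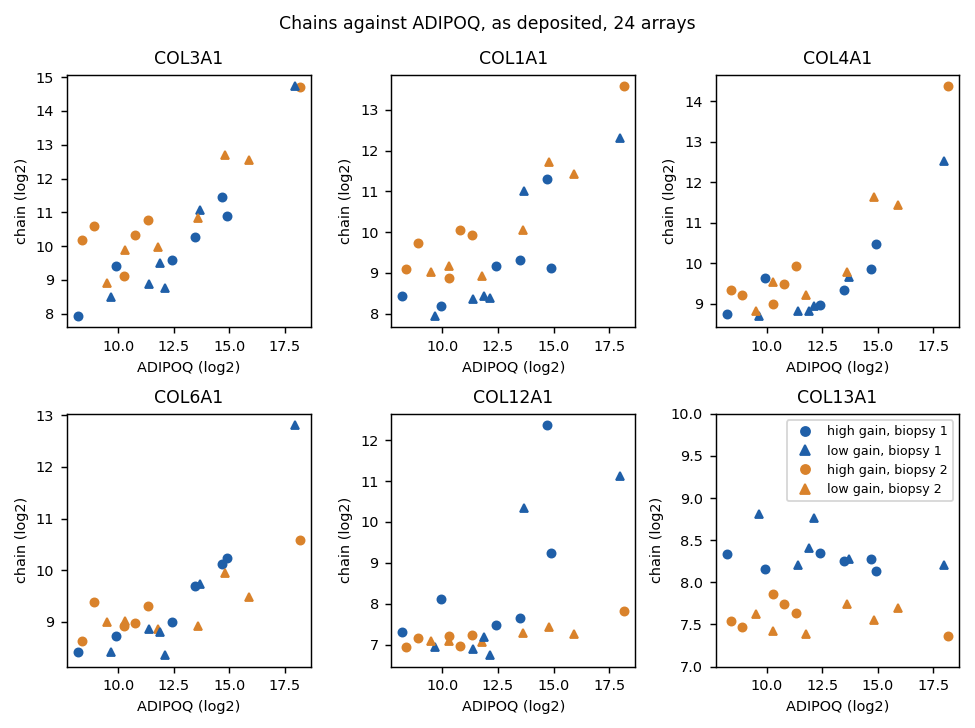
Level of 6 chains against ADIPOQ (both log2 as deposited) on 24 arrays, circles for high gain and triangles for low gain cows, blue for biopsy 1 and orange for biopsy 2. COL3A1, COL1A1, COL4A1 and COL6A1 are highest where ADIPOQ is highest. COL12A1 stands above 9 on 4 biopsy 1 arrays only, the 4 with the highest ADIPOQ of that biopsy. COL13A1 differs by biopsy, from 8.14 to 8.81 and from 7.37 to 7.86.

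The change within a cow gave the same kind of relation on the same arrays, in a comparison added after the data were seen. The change of ADIPOQ from biopsy 1 to biopsy 2 ran from -7.87 to 4.81. The change of COL3A1 followed it with r = 0.948 (rho = 0.951, permutation p = 1e-05, n = 12 cows), that of COL5A2 with r = 0.936 and that of COL1A1 with r = 0.925. The change of COL12A1 had r = 0.828 and passed over the 12 cows. In all 16 of 42 chains passed, 15 positive, where 16.6% of all genes passed, 8.17% positive and 8.43% negative. COL4A4, a type IV chain of the restricted network, was the 1 negative chain, with r = -0.757 (rho = -0.713; permutation p = 0.0055). Without high gain cow 4 and low gain cow 2, the farthest from the median, 11 chains passed against 6.75% of all genes, all of types I, III, IV, V and VI. COL3A1 then had r = 0.917 and COL4A1 r = 0.914, while COL4A4, at -0.819, did not pass. With low gain cow 4 and high gain cow 4 left out instead, 4 chains passed against 1.58% of all genes: COL3A1 (r = 0.927), COL4A1 (r = 0.921), COL5A2 (r = 0.913) and COL6A1 (r = 0.904). COL4A4 then had r = -0.633.

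The 14 chains that passed between biopsies and the 14 that passed against ADIPOQ in at least 1 biopsy had no member in common, 0 of each. How many of all genes passed both was not counted, so no trait of collagens is read from this. The standard errors of these sets between biopsies differed as well. They ran from 0.06 to 0.10 in the first set and from 0.21 to 0.70 in the second. The second set holds the 14 chains with the largest SD within a biopsy, 0.55 to 1.75 on average over the biopsies, against at most 0.47 in the other 28.

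A relation to ACTA1 could not be measured. ACTA1 was at the upper limit on 10 of 12 arrays of biopsy 1 and on 12 of 12 of biopsy 2, where only a lower bound is known. The low ACTA1 of low gain cow 4 at biopsy 1, 14.5, went with the highest values of that biopsy for COL3A1 (14.7), COL4A1 (12.5), COL6A1 (12.8) and COL15A1 (12.9). The highest COL12A1 was elsewhere, on an array with ACTA1 at the limit.

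Chains that join in 1 collagen molecule were compared with each other over the 12 arrays of each biopsy, 11 pairs and 22 relations in all. Pairs of chains from different molecules were not compared, so no value is read as a trait of partner chains. COL1A1, COL1A2, COL4A1 and COL4A2 each also passed against ADIPOQ at both biopsies. COL1A1 and COL1A2 had r = 0.967 at biopsy 1 (rho 0.825; permutation p = 1e-05) and 0.985 at biopsy 2 (rho 0.888; permutation p = 1e-05). Without the 2 arrays farthest from the median of COL1A1 these were 0.899 and 0.952. COL4A1 and COL4A2, the common type IV pair, had r = 0.974 and 0.983, and 0.812 and 0.905 without such arrays. COL6A1 and COL6A2 of type VI had r = 0.969 and 0.927, then 0.846 and 0.687. The type V pairs fell further: COL5A1 and COL5A2 from r = 0.924 and 0.917 to 0.526 and 0.684, and COL5A1 and COL5A3 from 0.919 and 0.907 to 0.319 and 0.388.

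Pairs of the restricted type IV networks gave lower values. COL4A3 and COL4A4 had r = 0.356 (permutation p = 0.26) and 0.118 (permutation p = 0.73), and COL4A5 and COL4A6 r = 0.604 (permutation p = 0.045) and 0.066 (permutation p = 0.84). Without the 2 arrays farthest from the median of the first chain, the first pair had r = 0.459 and 0.663, and the second -0.174 and -0.145. COL8A1 and COL8A2 had r = -0.160 and -0.299. In the RefSeq gene order of assembly ARS-UCD2.0, COL4A1 and COL4A2 are neighbours, and so are COL4A3 and COL4A4, COL4A5 and COL4A6, COL6A1 and COL6A2, COL6A5 and COL6A6, COL3A1 and COL5A2, and COL9A1 and COL19A1. Of the neighbours COL6A5 and COL6A6 the first rose and the second fell between biopsies.

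Lists of genes around collagen were compared between biopsies in the same fit. Of 32 measured enzymes of collagen processing, 3 were higher and 7 lower at biopsy 2, or 10 of 32 against 42% of all genes. The protein disulfide isomerase P4HB, a subunit of the prolyl hydroxylase that stabilises the helix, rose by 0.80 ± 0.14 and the lysyl hydroxylase PLOD1 by 0.59 ± 0.10. ADAMTS14 and ADAMTS2, which cut the front propeptide of fibrillar procollagens, fell by 0.68 ± 0.06 and 0.56 ± 0.17, and BMP1, which cuts the rear propeptide, by 0.43 ± 0.16. The lysyl hydroxylase PLOD2 fell by 0.58 ± 0.19.

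Of 22 measured genes of collagen breakdown 4 were higher and 1 lower, or 5 of 22 against 42% of all genes, with the collagenase gene MMP8 higher by 0.33 ± 0.06, the lysosomal protease CTSB by 0.55 ± 0.19 and PEPD, which splits proline dipeptides, by 0.39 ± 0.12. The lists that follow are to be read against the same 42%. Among 12 measured receptors DDR1 rose by 0.43 ± 0.06 and ITGB1, the integrin subunit shared by collagen receptors, fell by 0.87 ± 0.28. Of 18 fibril partners TNC, the matrix protein tenascin C, fell by 1.48 ± 0.34 and ELN, elastin, by 0.39 ± 0.14. TNC was dim, with deposited medians of 6.45 at biopsy 1 and 5.72 at biopsy 2, under the 25th percentile of all features (6.76). Of 12 measured basement membrane partners AGRN, agrin, rose by 0.75 ± 0.10 and HSPG2, perlecan, by 0.71 ± 0.27. Of 13 measured matrix regulators SMAD4 and SMAD7 rose by 0.69 ± 0.13 and 0.42 ± 0.15 and TGFB1 and TGFBR1 fell by 0.41 ± 0.15 and 0.42 ± 0.14. Of 13 fibroblast markers 0 passed against 42% of all genes, with LUM, lumican, at 0.89 ± 0.40 (limma, adjusted p = 0.091) the nearest. The muscle fibre markers lay too near the upper limit of the scale for a change to be read from them. In the comparisons of gain classes 0 genes of these lists passed.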

How the data were processed

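The deposited table holds 1 log2 value per array feature, taken as log2 from its range, since the sources used here state neither base nor normalization. Per the labels' protocols, RNA was extracted with TriPure Reagent and labelled as biotin cRNA from 250 ng. Affymetrix Expression Console and Transcriptome Analysis Console are named in the submitters' processing notes. Of 26773 features 18790 had 1 gene symbol, 385 several and 7598 none. The 42 chains had 44 features, as COL4A4 and COL5A1 had 2 each. The dimmer feature of COL5A1 was at 7.51 and 7.50 in the means of biopsies 1 and 2 as deposited, where the brighter was at 9.43 and 10.03, and that of COL4A4 at 5.94 and 5.97, where the brighter was at 8.23 and 8.78. A feature with COL28A1 under 2 gene numbers was left out. Of 38 chains with an Entrez number all were found in the RefSeq table of ARS-UCD2.0 and no symbol changed.

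For biopsies, the 24 arrays were quantile normalized and cow was a fixed block, with both gain classes in the same fit; for gain, values stayed as deposited. The fits used lmFit and eBayes (trend) of limma 3.58.1 under R 4.3.3, and Benjamini-Hochberg adjustment over 18444 genes and a threshold of 0.05. Standard errors and 95% intervals are limma's moderated values. Pairing comes from animal numbers in the titles. After group means were removed, arrays of 1 cow correlated at -0.187 to 0.320 (median 0.145; other cows 0.025). Values less than 0.05 under the maximum of their set were taken to be at the limit. Correlations used 100000 permutations (scipy 1.17.1), adjusted over all genes and both biopsies (for changes within cows, over all genes); the plan had named an adjustment over the chains alone, which was not used. Partner chains are given with unadjusted p. The fits were tested on simulated data.

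Values are named for the 8 chains with the highest mean, every chain past a threshold, the 5 with the smallest p in each comparison and every chain of types I, III, IV, V and VI; the text gives a part of these and of the gene lists. The values of the plotted chains, COL12A1 and the pairs were known when these were picked. The members and lists were chosen with earlier results of these data known. Alternatives covered scaling, the block, dim genes, features per gene, moderation, array weights, each cow and ADIPOQ's 2 extreme arrays; the change within cows, the pairs and the odorant receptor limit were added after seeing the data. Probe sequences and a genome were not used here, so no sequence or coordinates are given.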

Additional observations from a re-analysis of the deposited data

Results flagged for a closer look

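Among 36 genes tested in 4 groups of 6 arrays, 26 of 144 sets of values had a highest or lowest array set apart from the rest by Dixon's test; chance gives about 1 in 20. Of the 26, 11 fell on the array of high gain cow 4 at biopsy 2 and 9 on that of low gain cow 4 at biopsy 1. All values are log2 as deposited.

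High gain cow 4 at biopsy 2 was the highest of its group, with COL3A1 at 14.7 (next 10.8), COL4A1 at 14.4 (next 9.93), COL1A1 at 13.6 (next 10.1), COL1A2 at 13.4 (next 10.6) and COL4A2 at 12.8 (next 9.08). COL15A1 was at 12.5 (next 10.3), COL5A1 at 12.2 (next 9.89), COL5A2 at 9.40 (next 7.44), COL5A3 at 9.16 (next 7.92) and COL12A1 at 7.82 (next 7.25). ADIPOQ was at 18.2 there (next 11.3).

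Low gain cow 4 at biopsy 1 was the highest of its group in COL15A1, at 12.9 (next 10.2), COL6A1, at 12.8 (next 9.73), COL4A1, at 12.5 (next 9.67), and COL5A1, at 11.7 (next 9.91). On the same array COL4A2 was at 11.6 (next 9.09), COL6A2 at 11.4 (next 9.51), COL5A3 at 9.67 (next 7.53), COL5A2 at 9.43 (next 7.87) and COL21A1 at 7.82 (next 6.84).

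The other 6 lay on 6 further arrays. COL1A1 was at 11.3 in high gain cow 1 at biopsy 1 (next 9.33), the array that also had the highest COL12A1. COL11A2 was at 8.37 in low gain cow 1 at biopsy 2 (next 7.95) and COL19A1 at 6.82 in low gain cow 5 at biopsy 2 (next 6.65). Lowest of their groups were COL7A1 at 6.76 in low gain cow 1 at biopsy 1 (next 7.14), COL4A5 at 6.60 in high gain cow 5 at biopsy 2 (next 6.87) and COL8A2 at 4.56 in low gain cow 6 at biopsy 2 (next 4.77).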

How the results depend on the processing

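Over 157 counts from alternative settings, 152 were within 1.5 times the value reported. Many of these belong to the interaction and the comparisons of gain classes, where the count reported was 0 and an unchanged 0 was taken as the same. Those say nothing about how stable the chains that passed were. Without each cow in turn the count of chains that passed in high gain cows ran from 5 to 9 (8 reported), with 5 on leaving out high gain cow 1 or cow 4. With a change above that of 95% of odorant receptor genes required, 1 of the 14 chains was left, by the construction of that limit. Without the 2 arrays farthest from the median of ADIPOQ the passing relations went from 24 to 0; with PLIN1, another adipocyte gene, they were 26, with deviations from the class mean 30 and after quantile normalization 25. Against the change of ADIPOQ within a cow 16 chains passed, and 4 without low gain cow 4 and high gain cow 4. With cow as a random replicate block, or with no replicate block, the counts between biopsies were 16 or 15 in all cows, 11 or 11 in high gain and 10 or 10 in low gain cows. No share of all genes is given for the relations with PLIN1, deviations from the class mean or quantile normalization. None is given for the block settings or the fits without 1 cow either. These counts are therefore not read as a trait of collagens. Of 1429 values of named chains 67 lost and 12 gained the threshold, and 3 reversed, all of chains that had not passed: COL4A2 to -0.13 without high gain cow 4 and to -0.01 without low gain cow 2 (range -0.13 to 0.51 over the cows left out), and COL6A1 to 0.060 without low gain cow 4 (range -0.51 to 0.060). In the comparison over all cows COL26A1 passed in 11 of 23 settings, COL6A5 in 19, COL12A1 in 6, and the other 12 chains called there in each of theirs. CKM in place of ACTA1 gave no value, as CKM was at the limit on 10 and 11 arrays. The number of arrays and the upper limit of the scale bound what could be seen.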

Other observations

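The genes most like COL12A1 over the 12 arrays of biopsy 1 were looked up after its values were seen, among symbols that are not locus or clone names. They were POSTN, periostin, a matrix protein (r = 0.95), CREB3L2, a regulator of secretory proteins (r = 0.93), PRRC2C (r = 0.93), MMP2, a gelatinase (r = 0.92), and ZC3H13 (r = 0.92), with AEBP1, a matrix protein that binds collagen (r = 0.92), further down. These are descriptions over 12 arrays of which 4 are high, the same 4 that had the highest ADIPOQ of biopsy 1, and no test was made. POSTN ranged from 6.14 to 9.76 at biopsy 1 and from 6.54 to 10.1 at biopsy 2, so it did not share the narrow range of COL12A1 at biopsy 2, 6.94 to 7.82. TNC ranged from 6.10 to 10.1 at biopsy 1 and from 5.47 to 6.08 at biopsy 2, without overlap on the values as deposited. After quantile normalization 1.89% of all genes lay lower at biopsy 2 without overlap, and no such share is given for deposited values. The medians of TNC were 6.45 and 5.72, both under the 25th percentile of all features (6.76). TNC had r = 0.45 with COL12A1 at biopsy 1. The tendon and cartilage gene COMP ranged from 6.50 to 8.69 and from 6.13 to 6.61, with r = 0.77.

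Of 10 tendon and cartilage markers, SOX9, a cartilage regulator, rose between biopsies by 0.88 ± 0.06 and MATN3 by 0.36 ± 0.08, while MKX, a tendon regulator, fell by 0.72 ± 0.11 and COMP by 0.71 ± 0.18 (SE, n = 12 cows; limma). Among leukocyte and macrophage markers (11) 3 rose and 4 fell, of 10 endothelial markers 2 rose and 1 fell, of 9 measured smooth muscle and pericyte markers none passed, of 6 measured markers of nerve and Schwann cells 1 rose and 1 fell, of 6 measured red blood cell markers 1 rose, and of 13 measured adipocyte markers THRSP rose. These counts are to be read against 42% of all genes.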
